A study of Homo sapiens with 12 samples.

Results

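Glycolysis and hypoxia genes were described in breast cancer cells cultured in synthetic matrices. The set holds 34 genes that were named one by one, and all 34 were found among the 23368 distinct gene symbols of the count table. They comprise 17 glycolytic enzymes, 3 regulators of glycolytic flux, 4 glucose and lactate transporters, 7 hypoxia-inducible genes outside glycolysis and 3 genes of oxygen sensing. MDA-MB-231 cells, an established ER− basal line, and T47D cells, an established ER+ luminal A line, were encapsulated as single cells in poly(ethylene glycol) hydrogels with a cell-degradable crosslinker. The hydrogels carried the collagen mimic GFOGER or the laminin mimic IKVAV, and RNA was taken on day 3 after the gels had been degraded with collagenase. Each RNA sample was pooled from 3 gels of one composition. MDA-MB-231 cells gave 3 libraries with GFOGER and 2 with IKVAV, and T47D cells gave 3 with either peptide. The third MDA-MB-231 sample with IKVAV was not analysed here. No condition without a peptide and no culture under low oxygen was among the samples.

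Glycolysis splits glucose into pyruvate in the cytosol, and lactate dehydrogenase turns pyruvate into lactate, which monocarboxylate transporters carry across the membrane. When oxygen is low, prolyl hydroxylases of the EGLN family no longer mark the subunit HIF1A for degradation, and the HIF1 dimer activates genes through hypoxia response elements whose core reads ACGTG or GCGTG. Many glycolytic enzymes, glucose transporters and EGLN3 itself are among its known targets, and HIF1A is regulated mainly through its protein, which transcript counts do not measure.

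Each library had from 14338238 to 18452145 reads on genes, so that 3 counts, the limit that a count of 0 allows, were at most 0.203 cpm, the usual unit of counts relative to the scaled library size. The cell line labels were checked against marker genes. VIM, the mesenchymal filament vimentin, lay at 1434 to 2417 cpm in MDA-MB-231 libraries and at 3.72 to 5.29 cpm in T47D libraries. CDH1, E-cadherin, lay at 2.29 to 5.51 cpm in MDA-MB-231 and 996 to 1050 cpm in T47D libraries, and ESR1, the estrogen receptor, at no more than 0.797 cpm and at 257 to 317 cpm. In both lines 1 library stood apart from its replicates: the chi-square per degree of freedom across genes was 16.4 to 18.6 for MDA-MB-231 GFOGER replicate 3 against the other two and 2.51 between those, and 16.9 to 17.9 for T47D IKVAV replicate 3 against 5.50. Replicates were separate samples, and nothing in the labels says that they came from separate cultures. In such bulk samples, fewer cells with a transcript and less of it per cell cannot be told apart.

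In MDA-MB-231 cells, most of the members that changed were lower with GFOGER than with IKVAV, led by EGLN3, NDRG1 and PFKFB4. Of the 34 members, 18 were lower and 3 higher at an adjusted p below 0.05 (edgeR quasi-likelihood test, Benjamini-Hochberg over all genes tested), and 13 did not pass. Among all 14092 genes tested, 21.4% were lower and 21.4% were higher. Over 2-fold, 2 members were lower, EGLN3 and NDRG1, and none was higher, where 6.46% of all genes were lower and 3.12% higher. The median log2 fold change was -0.31 over the members and 0.0039 over all genes tested. Fewer members passed when either IKVAV library was left out, with the remaining library assumed to vary like the others. The 18 lower and 3 higher members all kept their sign. Without GFOGER replicate 3, 27 of the 34 members passed, where 8021 of all 13939 genes tested did. The library totals implied by the RPKM columns form 2 sets, and IKVAV replicate 1 was the only MDA-MB-231 library of the lower one. A term for these sets thus amounts to leaving it out, so it is no separate check among the alternatives below. The 4 MDA-MB-231 marker genes rose as well, and summed to 6017 to 6213 cpm with GFOGER and 3918 to 4013 cpm with IKVAV. Their part in the members' changes was not tested. Across 16 alternatives, EGLN3, NDRG1, PFKFB3, PFKFB4, PDK1, SLC2A3, VEGFA and HK2 passed each time, which makes 8 of the 21.

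**Figure D1:**
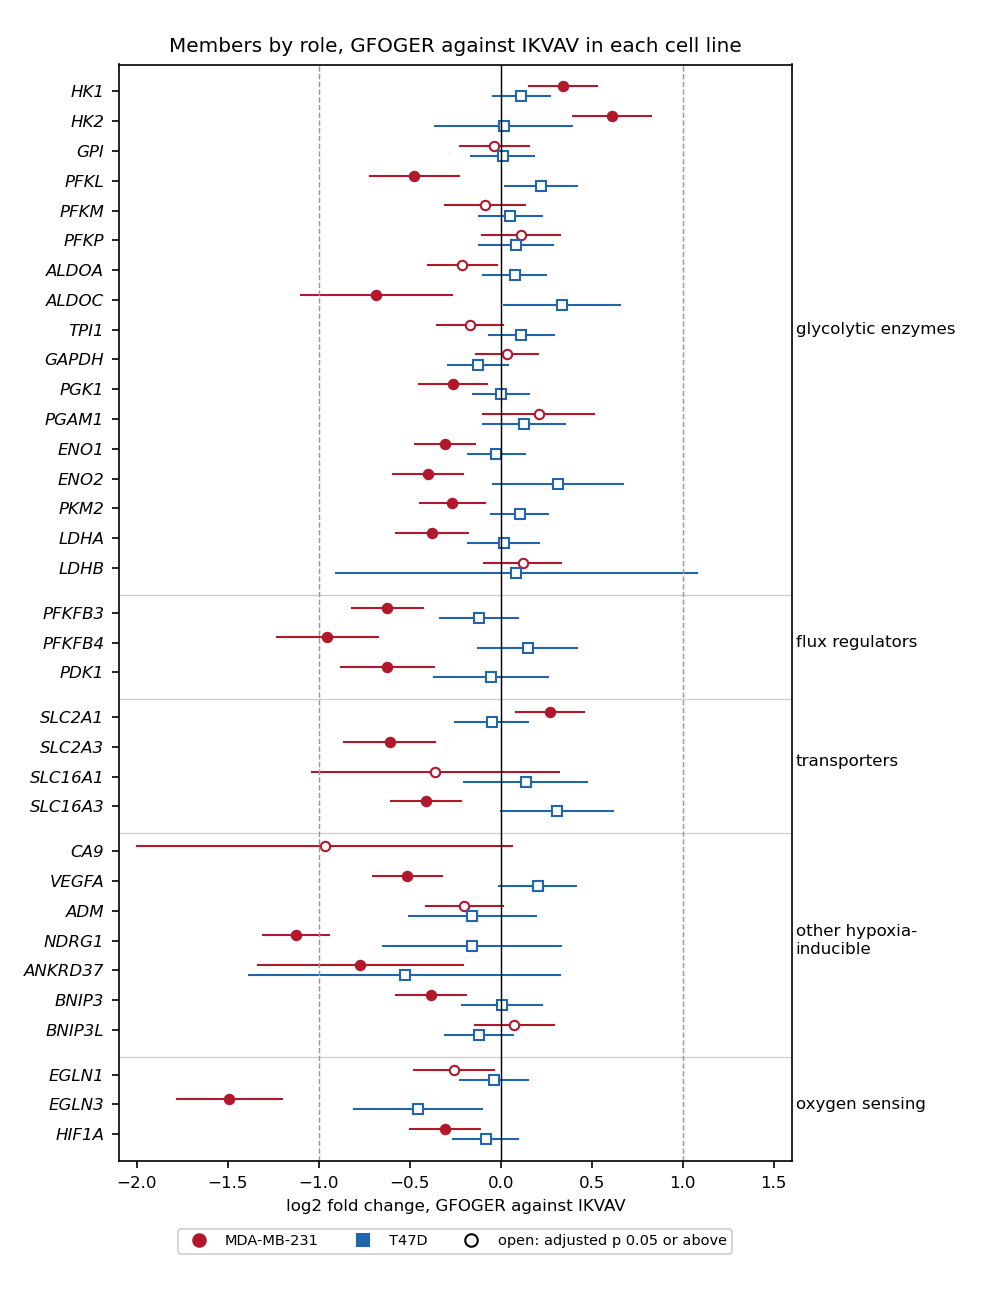
Log2 fold change of GFOGER against IKVAV for each member, by role, in MDA-MB-231 (red circles) and T47D cells (blue squares), with 95% confidence intervals from the fit and dashed lines at 2-fold. Filled symbols passed an adjusted p of 0.05, which 18 lower and 3 higher members did in MDA-MB-231 cells and 0 in the T47D line, where SLC2A3 and CA9 had too few counts to be tested.

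Among the genes of oxygen sensing, EGLN3 moved most. EGLN3 encodes prolyl hydroxylase PHD3 and spans chr14:34393421-34420284 (hg19). Its level was 9.83, 9.63 and 9.62 cpm in the 3 MDA-MB-231 libraries with GFOGER and 28.1 and 26.2 cpm in the 2 with IKVAV. All GFOGER libraries lay well below both IKVAV libraries, and EGLN3 was 2.81-fold lower (log2 fold change -1.49, SE 0.14, adjusted p = 3.4e-07, edgeR). HIF1A, the oxygen-regulated subunit of the transcription factor, was at 856, 894 and 770 cpm with GFOGER against 989 and 1078 cpm with IKVAV. HIF1A thus fell by a smaller step without overlap of the libraries (-0.31, SE 0.09, adjusted p = 0.0127, edgeR). EGLN1, the main prolyl hydroxylase PHD2, did not pass (-0.26, SE 0.10, adjusted p = 0.0576, edgeR), although its 83.4 to 101 cpm with GFOGER lay below 109 and 111 cpm with IKVAV.

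Hypoxia-inducible genes outside glycolysis fell in 4 of 7 cases, and none rose. NDRG1, a stress-responsive gene linked to differentiation, was at 279, 266 and 296 cpm with GFOGER and at 598 and 619 cpm with IKVAV. The 2 groups were far apart against their spread, with NDRG1 2.18-fold lower (log2 fold change -1.13, SE 0.09, adjusted p = 3.37e-08, edgeR). VEGFA, the angiogenic growth factor, was at 533, 493 and 580 cpm with GFOGER against 726 and 795 cpm with IKVAV (-0.52, SE 0.09, adjusted p = 0.000251, edgeR). BNIP3, a mitochondrial protein of mitophagy, was at 121, 124 and 117 cpm with GFOGER against 152 and 162 cpm with IKVAV (-0.38, SE 0.09, adjusted p = 0.00312, edgeR). Neither gene overlapped between the peptides. ANKRD37, a small ankyrin repeat gene, rested on 33 to 71 counts per library. Its level was 2.40, 2.04 and 2.68 cpm with GFOGER and 4.60 and 3.50 cpm with IKVAV (-0.77, SE 0.27, adjusted p = 0.0272, edgeR). The gene shares 697 bases of its span with UFSP2, which had up to 479 counts in a library, and the strand setting of the counting is not given in the sources used here.

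The 3 regulators of glycolytic flux, PFKFB4, PFKFB3 and PDK1, all fell. PFKFB3 and PFKFB4 make and degrade fructose 2,6-bisphosphate, the activator of phosphofructokinase, and PDK1 holds pyruvate dehydrogenase inactive. PFKFB4 (chr3:48555117-48594227, hg19) was at 18.9, 19.8 and 24.1 cpm with GFOGER and 40.8 and 39.8 cpm with IKVAV, a 1.94-fold difference just under the 2-fold line (-0.95, SE 0.13, adjusted p = 2.46e-05, edgeR). PFKFB3 was at 89.3, 85.6 and 88.0 cpm with GFOGER and 136 and 133 cpm with IKVAV (-0.62, SE 0.09, adjusted p = 5.47e-05, edgeR). PDK1 was at 27.7, 29.2 and 26.4 cpm with GFOGER and 45.0 and 40.2 cpm with IKVAV (-0.62, SE 0.12, adjusted p = 0.000595, edgeR). For each of these genes the highest GFOGER library lay below the lowest IKVAV library.

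**Figure D2:**
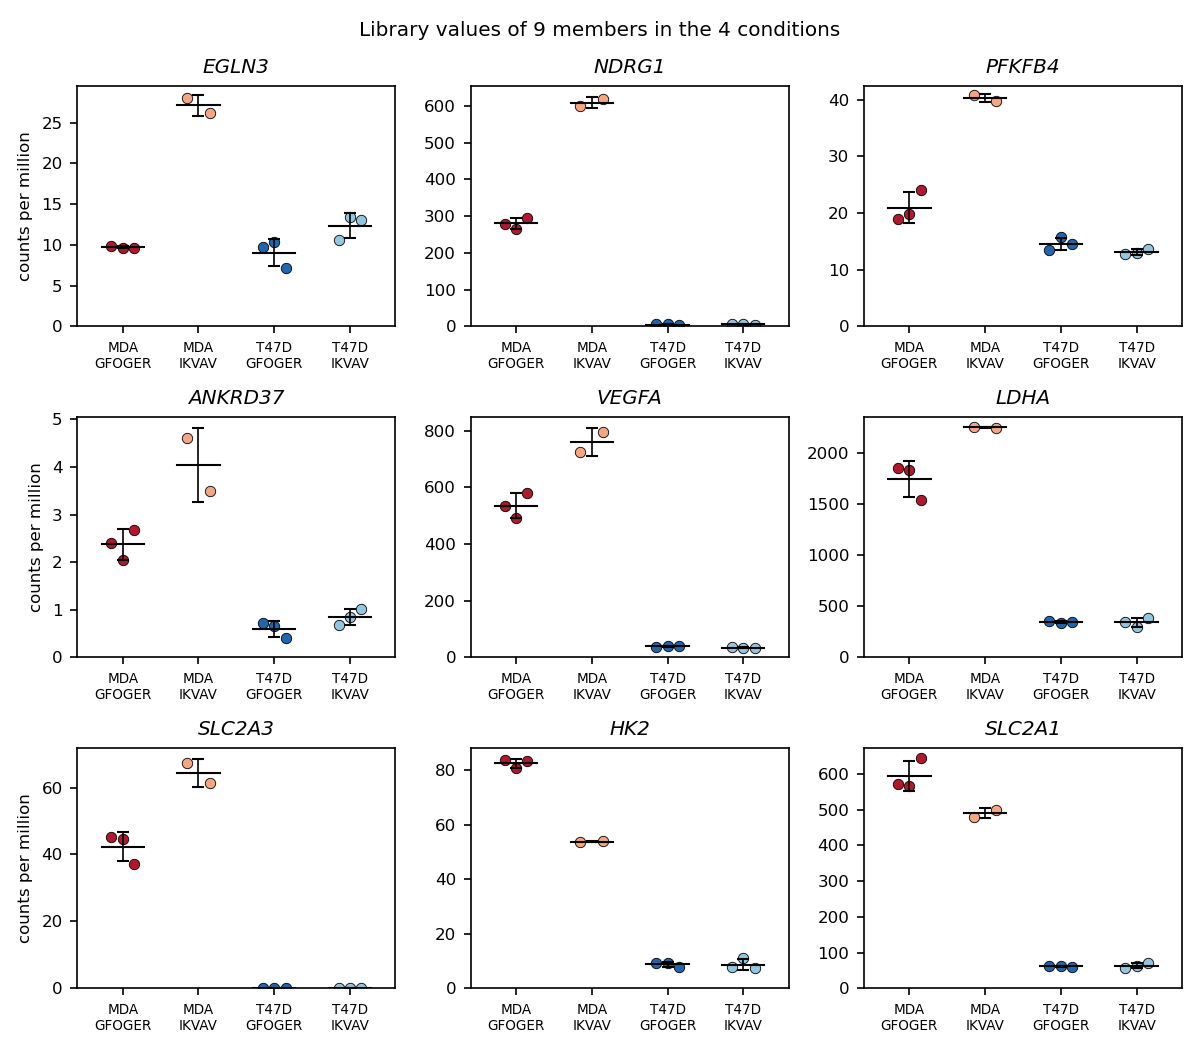
Level in cpm of 9 members in each library (points) of the 4 conditions, with the mean (bar) and SD (whiskers), each axis starting at 0. EGLN3, NDRG1, PFKFB4, ANKRD37, VEGFA, LDHA and SLC2A3 lay lower and HK2 and SLC2A1 higher in MDA-MB-231 cells with GFOGER than with IKVAV.

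The glycolytic enzymes were split. Of 17, 7 fell, 2 rose and 8 did not pass, and their median log2 fold change was -0.17. The steps at the entry of the pathway rose: HK2, a hexokinase that phosphorylates glucose, was at 83.8, 80.8 and 83.4 cpm with GFOGER and 53.7 and 53.9 cpm with IKVAV. The replicates of HK2 lay close together within each peptide, and the gene was 1.53-fold higher with GFOGER (0.61, SE 0.10, adjusted p = 0.000178, edgeR). HK1, the widely expressed hexokinase, rose less, from 347 and 344 cpm to 422, 423 and 475 cpm (0.34, SE 0.09, adjusted p = 0.00535, edgeR). Of the windows of 51 bases along the HK2 transcript 63.0% have a near match elsewhere in the genome. Among the other members that changed, this share was highest for BNIP3 (84.4%), SLC2A3 (67.99%) and LDHA (57.6%). Whether reads with several matches were counted is not given in the sources used here.

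Further down the pathway, the changed enzymes were lower with GFOGER. PFKL, the liver-type phosphofructokinase, was at 113, 109 and 149 cpm with GFOGER and 178 and 164 cpm with IKVAV, and fell by 0.48 on the log2 scale (SE 0.12, adjusted p = 0.00335, edgeR). ALDOC, the brain-type aldolase, was at 4.29, 4.69 and 4.84 cpm against 6.997 and 7.72 cpm and fell by 0.68 (SE 0.20, adjusted p = 0.0102, edgeR). PGK1, ENO1 and PKM2 act in the steps from bisphosphoglycerate to pyruvate, and their log2 fold changes were -0.26 (adjusted p = 0.0234), -0.31 (adjusted p = 0.00474) and -0.27 (adjusted p = 0.0175, edgeR). ENO2, the neuron-type enolase, fell by 0.40 (SE 0.09, adjusted p = 0.00211, edgeR), from 157 and 170 cpm to 124, 122 and 127 cpm. LDHA, the lactate dehydrogenase subunit favoured in glycolytic tissue, was at 1851, 1839 and 1538 cpm with GFOGER and 2254 and 2250 cpm with IKVAV (-0.38, SE 0.09, adjusted p = 0.00383, edgeR). In each of these genes the libraries of the 2 peptides did not overlap. The same held for ALDOA and TPI1. The share of all genes without overlap was not counted, so lack of overlap in MDA-MB-231 cells, here and for other members, is a description only. ALDOA, TPI1, GAPDH, GPI, PFKM, PFKP, PGAM1 and LDHB, which catalyse other steps or are other isoforms, did not pass. Their values ran from -0.21 for ALDOA (adjusted p = 0.0652, edgeR) to 0.21 for PGAM1 (adjusted p = 0.265, edgeR). GAPDH, often used as a reference gene, differed by 0.03 with a 95% confidence interval from -0.14 to 0.21.

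The 2 glucose transporters moved in opposite directions. SLC2A1 encodes GLUT1, the basal glucose transporter, and was at 572, 567 and 644 cpm with GFOGER against 480 and 500 cpm with IKVAV (0.27, SE 0.09, adjusted p = 0.0208, edgeR). SLC2A3 encodes the high-affinity transporter GLUT3 and was at 45.1, 44.5 and 37.3 cpm with GFOGER against 67.2 and 61.4 cpm with IKVAV (-0.61, SE 0.12, adjusted p = 0.000614, edgeR). Both differences were larger than the spread of the libraries, SLC2A1 being higher and SLC2A3 lower in each GFOGER library. SLC16A3 (MCT4), which exports lactate, was at 266, 263 and 302 cpm with GFOGER against 381 and 352 cpm with IKVAV and fell (-0.41, SE 0.09, adjusted p = 0.00168, edgeR). SLC16A1 (MCT1) had 26 to 44 counts in these libraries and did not pass (-0.36, SE 0.32, adjusted p = 0.389, edgeR). Of the hypoxia-inducible genes that did not pass, CA9, a membrane carbonic anhydrase, had a log2 fold change of -0.97 (SE 0.49, adjusted p = 0.121, edgeR) from 6 to 17 counts per library. ADM, the vasodilator adrenomedullin, was at 73.5 to 75.5 cpm with GFOGER and 82.5 to 88.0 cpm with IKVAV, and did not pass (adjusted p = 0.115, edgeR). BNIP3L, the relative of BNIP3, had values of 279 to 344 cpm with GFOGER that spanned the 287 to 313 cpm with IKVAV.

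The promoters of the members that moved most are shown so that the HIF core motifs can be read in them. They were chosen after the values were seen as the 4 largest decreases that passed and had an entry in the RefSeq promoter table (build GRCh38.p14), together with HK2, the largest increase, which has 2 promoters. The 250 bases before each start are given 5′ to 3′ on the gene's strand, with ACGTG and GCGTG in capitals on either strand. The runs CACGT and CACGC are these motifs on the opposite strand, and CACGTG holds 2 overlapping matches.
EGLN3 (chr14:33951075-33951324, minus strand): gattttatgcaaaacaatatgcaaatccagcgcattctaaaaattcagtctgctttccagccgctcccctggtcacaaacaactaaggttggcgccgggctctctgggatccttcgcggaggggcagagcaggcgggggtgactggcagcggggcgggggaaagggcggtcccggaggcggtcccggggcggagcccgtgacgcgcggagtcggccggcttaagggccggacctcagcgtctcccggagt
PFKFB4 (chr3:48556804-48557053, minus strand): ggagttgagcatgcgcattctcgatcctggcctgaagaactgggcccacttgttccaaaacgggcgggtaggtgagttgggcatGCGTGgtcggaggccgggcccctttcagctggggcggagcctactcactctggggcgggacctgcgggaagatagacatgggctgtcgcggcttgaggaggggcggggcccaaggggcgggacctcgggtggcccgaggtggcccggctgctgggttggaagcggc
ANKRD37 (chr4:185396591-185396840, plus strand): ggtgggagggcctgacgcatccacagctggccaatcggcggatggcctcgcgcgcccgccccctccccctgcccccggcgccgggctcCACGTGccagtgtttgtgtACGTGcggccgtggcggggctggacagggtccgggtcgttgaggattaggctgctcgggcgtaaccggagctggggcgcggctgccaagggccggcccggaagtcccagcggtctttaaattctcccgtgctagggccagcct
ALDOC (chr17:28576896-28577145, minus strand): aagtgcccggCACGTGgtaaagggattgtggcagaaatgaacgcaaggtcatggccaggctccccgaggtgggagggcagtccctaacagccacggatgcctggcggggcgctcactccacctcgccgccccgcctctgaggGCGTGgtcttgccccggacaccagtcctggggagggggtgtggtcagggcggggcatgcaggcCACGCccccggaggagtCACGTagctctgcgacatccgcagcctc
HK2 (chr2:74833877-74834126, plus strand): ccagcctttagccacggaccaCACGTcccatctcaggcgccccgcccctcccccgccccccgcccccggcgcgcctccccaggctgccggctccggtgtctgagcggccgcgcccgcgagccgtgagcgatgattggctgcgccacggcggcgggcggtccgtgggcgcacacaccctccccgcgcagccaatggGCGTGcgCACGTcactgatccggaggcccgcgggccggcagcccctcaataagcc
HK2 (chr2:74834920-74835169, plus strand): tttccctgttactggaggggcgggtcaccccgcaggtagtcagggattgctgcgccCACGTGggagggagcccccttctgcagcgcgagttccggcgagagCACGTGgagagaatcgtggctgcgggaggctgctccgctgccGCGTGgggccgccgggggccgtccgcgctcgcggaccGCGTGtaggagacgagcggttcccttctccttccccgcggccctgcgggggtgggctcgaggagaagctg
EGLN3, the member with the largest decrease, had 0 matches in this window, PFKFB4 had 1, ANKRD37 had 3 and ALDOC had 5. HK2, which rose, had 3 and 6 matches, and no match says only that these letters are not in the window. A promoter entry was found for 29 of the 34 members, and none for SLC2A3, SLC16A1, VEGFA, NDRG1 and BNIP3L. Over the full 300 bases, 37 of 56 member promoters (66.1%) held at least 1 match, against 48.4% of 35116 promoters in the table. At least 2 matches stood in 28.6% of member promoters and in 23.1% of all. The motifs contain C and G, and the mean GC content was 64.8% in member promoters and 57.5% in all promoters. All 4 promoters of hypoxia-inducible genes outside glycolysis held a match.

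In T47D cells, no member passed between the peptides. Of the 32 members tested, 0 had an adjusted p below 0.05 in edgeR, 3 had an unadjusted p below 0.05, 0 passed in DESeq2 and 1, ALDOC, passed in limma's voom with sample quality weights. Among all 13642 genes, 0.11% passed, and 0.0293% did so over 2-fold. The median log2 fold change was 0.016 over the members and -0.0010 over all genes tested. EGLN3 had the lowest unadjusted p. Its level was 9.69, 10.3 and 7.12 cpm with GFOGER and 10.6, 13.5 and 13.1 cpm with IKVAV. The groups met without overlapping, and the log2 fold change was -0.46 with a 95% confidence interval from -0.81 to -0.10 (adjusted p = 0.33, edgeR). VEGFA, PKM2, TPI1 and PGAM1 did not overlap either, but lay higher with GFOGER. The share of all genes without overlap was not counted in T47D cells, so this is a description only. PFKL and ALDOC, the other members with an unadjusted p below 0.05 in edgeR, were higher too. NDRG1 was at 3.99 to 5.15 cpm with GFOGER and 3.68 to 7.05 cpm with IKVAV, and its interval ran from -0.65 to 0.33. PFKFB4 was at 13.5 to 15.7 cpm with GFOGER and 12.8 to 13.7 cpm with IKVAV, with an interval from -0.13 to 0.42. HK2 was at 7.69 to 9.35 cpm and 7.42 to 10.98 cpm, with an interval from -0.36 to 0.39. The intervals of EGLN3 and NDRG1 ended above the -1.49 and -1.13 measured in MDA-MB-231 cells. Heat shock and early stress genes summed to 5224 to 7430 cpm in T47D libraries with IKVAV and 4648 to 5103 cpm with GFOGER, and their part in these values was not tested. Without T47D IKVAV replicate 3, the library that stood apart, 0 members passed as well. All T47D GFOGER libraries, and IKVAV replicate 3, belonged to the lower set of RPKM totals. T47D IKVAV replicates 1 and 2 belonged to the higher set. Without replicate 3, set and peptide thus cannot be told apart in T47D cells. SLC2A3 and CA9 had at most 4 counts in a T47D library and were not tested.

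The difference in response between the lines was tested as an interaction of cell line and peptide. A negative value means that GFOGER lowered the gene more, or raised it less, in MDA-MB-231 than in T47D cells. For 12 members the interaction was negative and for 1 positive at an adjusted p below 0.05, where 10.1% and 10.8% of all 15320 genes were so. Over 2-fold, 3 members were negative, where 4.15% of all genes were, and none was positive, where 2.24% of all genes were. The members' median was -0.27, and that of all genes tested 0.025. The 3 were PFKFB4 (-1.09, SE 0.18, adjusted p = 0.00027, edgeR), EGLN3 (-1.03, SE 0.22, adjusted p = 0.00263) and ALDOC (-1.01, SE 0.25, adjusted p = 0.0065). NDRG1, VEGFA, SLC16A3, ENO2 and PFKL followed with values from -0.96 to -0.69, and PDK1, PFKFB3, BNIP3 and PKM2 with values from -0.56 to -0.36. HK2 was the member with a positive interaction (0.60, SE 0.19, adjusted p = 0.0307, edgeR). HIF1A, whose level fell in MDA-MB-231 cells, did not differ in response between the lines beyond the error (-0.22, SE 0.13, adjusted p = 0.241, edgeR), nor did SLC2A1 (0.33, SE 0.13, adjusted p = 0.0683, edgeR). Fewer members passed without MDA-MB-231 IKVAV replicate 1 or replicate 2, which leaves 1 library in that condition, and all 13 kept their sign. The 2-fold count was 1 without T47D GFOGER replicate 1 or replicate 2.

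Between the cell lines, averaged over the peptides, most members were higher in MDA-MB-231 cells. At an adjusted p below 0.05, 26 members were higher and 6 lower, where 42% of all 15320 genes were higher and 42.5% lower. Over 2-fold, 24 were higher and 3 lower, against 23.7% and 22.6% of all genes. The median log2 difference was 1.46 over the members and -0.015 over all genes tested. Each line is a single established line, so that the test compares these lines and not their subtypes. All 7 hypoxia-inducible genes outside glycolysis were over 2-fold higher in MDA-MB-231 cells, from BNIP3L (1.46, SE 0.07, adjusted p = 3.8e-14, edgeR) to NDRG1 (6.37, SE 0.11, adjusted p = 1.29e-21). CA9, which is among them, and SLC2A3, also among the 24, had too few counts in T47D cells to be tested there. Both passed the filter through their MDA-MB-231 counts, so their direction was set in advance and adds no support. VEGFA was at 31.2 to 40.1 cpm in the 6 T47D libraries, and even its lowest MDA-MB-231 library, 493 cpm, was far above (4.15, SE 0.07, adjusted p = 8.26e-22, edgeR).

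**Figure D3:**
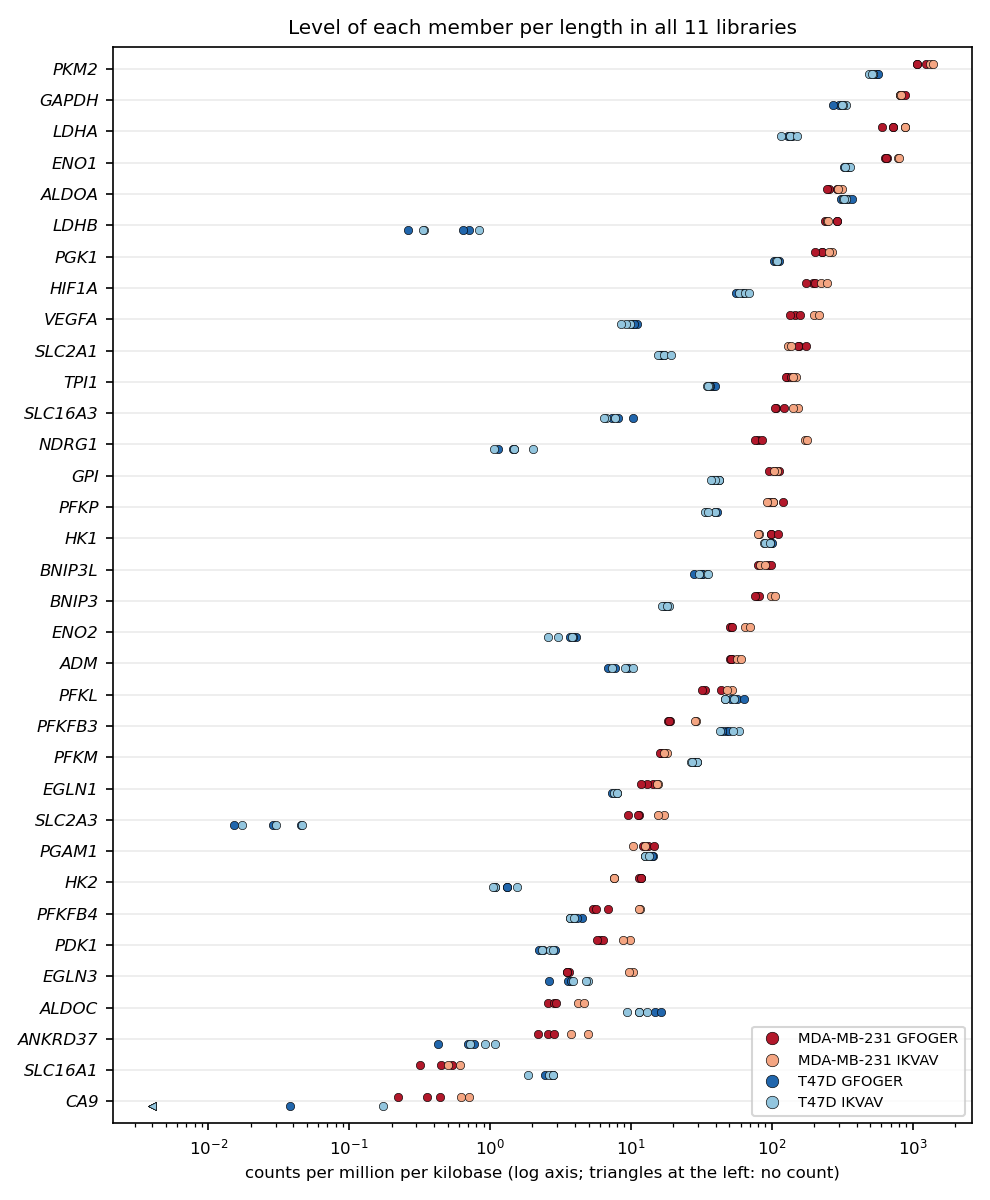
Level of each member in all 11 libraries in cpm per kilobase on a log axis, ordered by the mean of the MDA-MB-231 libraries. Triangles mark T47D libraries without a count of CA9, and all T47D points lie to the right of MDA-MB-231 points for ALDOC, SLC16A1, PFKFB3 and PFKM.

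LDHB, SLC2A3 and NDRG1 differed most between the lines. LDHB, the lactate dehydrogenase subunit favoured in oxidative tissue, was at 380 to 463 cpm in MDA-MB-231 libraries and at 0.417 to 1.34 cpm in T47D libraries, which were 7 to 22 counts. The groups were 8.95 apart on the log2 scale (SE 0.14, adjusted p = 5.44e-22, edgeR). Of the 51-base windows of LDHB, 36.6% have a near match elsewhere, so that the few T47D counts are uncertain in origin. SLC2A3 had 37.3 to 67.2 cpm in MDA-MB-231 libraries and 1 to 3 counts in each T47D library, a pooled ratio of 418 with a counting interval of 239 to 810.3. CA9 had 60 counts over the MDA-MB-231 libraries and 5 over the T47D libraries, 4 of them in 1 library, a ratio of 14.3 with a counting interval of 5.79 to 45.5. These intervals are exact binomial at 95% and cover counting error only. Of the windows of SLC2A3, 67.99% have a near match elsewhere.

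Other members higher in MDA-MB-231 cells were ENO2 (4.08), SLC16A3 (4.06), SLC2A1 (3.11), HK2 (2.93), ADM (2.70), LDHA (2.53), BNIP3 (2.34) and HIF1A (1.77) on the log2 scale, with standard errors of 0.06 to 0.10. Members higher in T47D cells were SLC16A1 (-2.37, SE 0.16, adjusted p = 1.61e-11, edgeR), ALDOC (-1.84, SE 0.13, adjusted p = 2.05e-11), PFKFB3 (-1.09, SE 0.07, adjusted p = 1.3e-11), PFKM (-0.73, SE 0.06, adjusted p = 1.07e-09), PFKL (-0.30, SE 0.08, adjusted p = 0.00181) and ALDOA (-0.24, SE 0.06, adjusted p = 0.00137). SLC16A1 was at 1.48 to 2.85 cpm in MDA-MB-231 libraries and 8.75 to 13.1 cpm in T47D libraries. The gene AKR7A2P1 overlaps it by 1324 bases and had up to 119 counts in a library. PFKL and ALDOA overlapped between the lines. With the IKVAV libraries alone PFKL differed by 0.056 in the other direction (adjusted p = 0.607, edgeR). HK1 (adjusted p = 0.25, edgeR) and PGAM1 (adjusted p = 0.186) did not pass, and most of the windows of PGAM1, 94.1%, have a near match elsewhere.

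Per kilobase of the coding length in the table, PKM2 stood highest in every condition, with a mean level of 1136 cpm per kilobase in MDA-MB-231 cells with GFOGER and 510 in T47D cells with IKVAV. In MDA-MB-231 cells with IKVAV, LDHA (882 ± 1.26 cpm per kilobase, SD, n = 2), GAPDH (818 ± 12.9) and ENO1 (794 ± 9.61) came next. In T47D cells with IKVAV the next were ENO1 (346 ± 15.1, SD, n = 3), ALDOA (327 ± 9.78) and GAPDH (323 ± 9.91), whose spreads meet, and LDHA lay at 134 ± 18.2 cpm per kilobase. Levels per length of GAPDH, TPI1, BNIP3 and PGAM1 are uncertain, as 82.7% to 94.1% of their windows have a near match elsewhere. Among the members placed highest, that share was 57.6% for LDHA, 44.5% for PKM2 and 32.8% for ENO1, so that their order is uncertain too.

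Shares of isoforms within enzyme and transporter families, in cpm per kilobase, are a description without a test. They are taken among the members alone, and other genes of a family are left out. LDHA made up 71.4% to 71.7% of LDHA plus LDHB in MDA-MB-231 libraries with GFOGER, 77.8% to 78.2% with IKVAV and at least 99.3% in T47D libraries. The share thus differed between the peptides in MDA-MB-231 cells by more than the range of its replicates. PFKP, the platelet-type phosphofructokinase, took 66.3% to 67.4% of the 3 phosphofructokinases in MDA-MB-231 cells with GFOGER, 58.6% to 59.4% with IKVAV and at most 32.4% in T47D libraries, where PFKL was the largest. EGLN3 made up 20.2% to 23.1% of EGLN1 plus EGLN3 in MDA-MB-231 cells with GFOGER and 38.6% to 39.8% with IKVAV. In T47D cells the EGLN3 share was 25.1% to 32.8% with GFOGER and 32.8% to 39.4% with IKVAV. SLC16A3 made up at least 99.5% of SLC16A1 plus SLC16A3 in MDA-MB-231 libraries and 69.7% to 80.9% in T47D libraries.

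**Figure D4:**
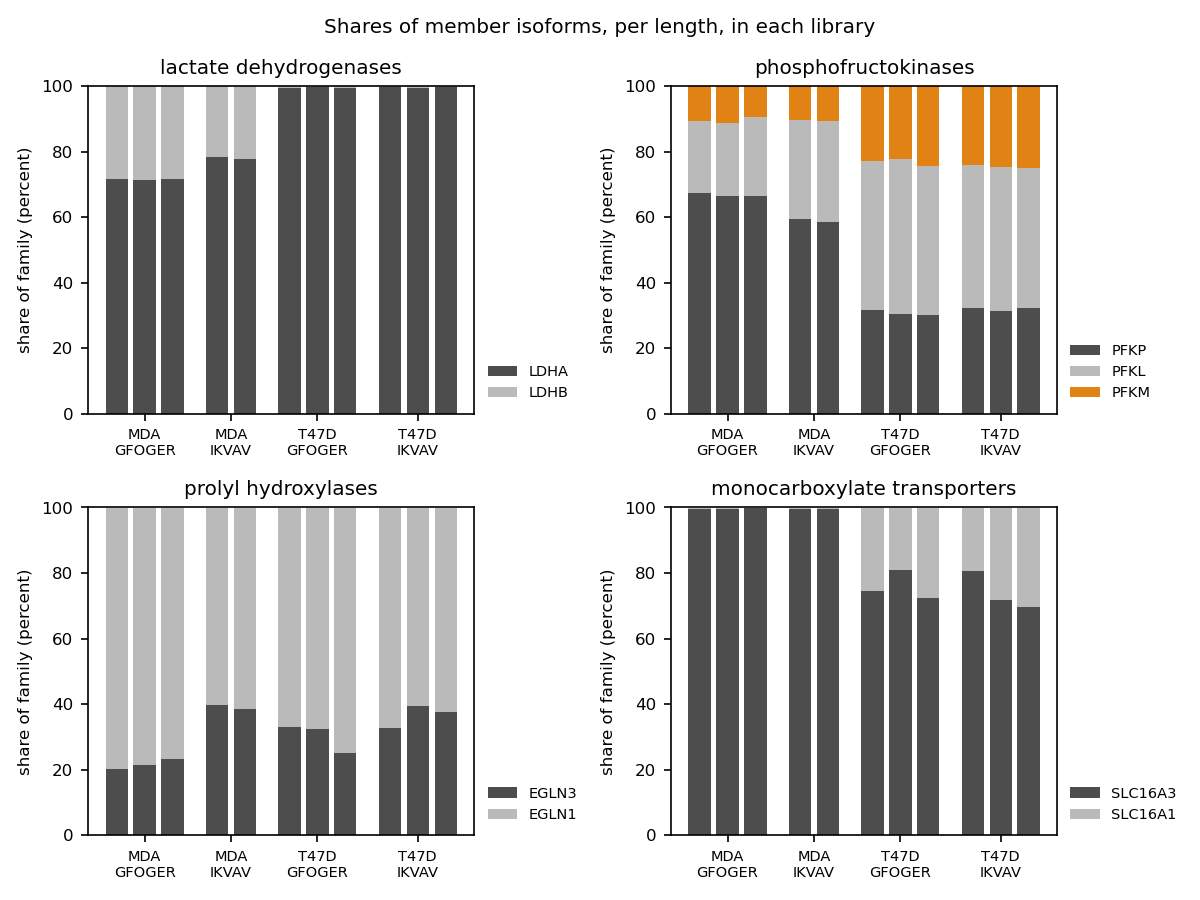
Share of each member in the summed cpm per kilobase of the members of its family, 1 bar per library, grouped by condition. Genes of a family that are not members are left out. LDHB took at most 0.719% of a bar in T47D libraries, and the EGLN3 share is larger with IKVAV than with GFOGER in MDA-MB-231 cells.

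Other genes of the same pathways were counted by list in MDA-MB-231 cells, to be read against the 21.4% of all genes tested that rose and the 21.4% that fell. Of 26 other hypoxia-inducible genes, 12 fell, 4 of them over 2-fold, and 2 rose, 1 of them over 2-fold, and the median was -0.27. PPFIA4, an adaptor of the liprin family, lay at 4.01 to 5.64 cpm with GFOGER and 13.5 to 14.95 cpm with IKVAV (-1.59, SE 0.18, adjusted p = 4.23e-06, edgeR). DDIT4, an inhibitor of mTOR signaling, lay at 51.1 to 62.5 cpm with GFOGER and 149 to 157 cpm with IKVAV (-1.45, SE 0.10, adjusted p = 1.69e-08, edgeR). BHLHE40, a repressor of transcription, was the riser under 2-fold (0.38, SE 0.10, adjusted p = 0.00519, edgeR). Of 13 other regulators of the HIF pathway tested, 3 rose and 4 fell, with a median of -0.10. The leading genes were CUL2 (0.42) and TCEB1 (0.41), both parts of the ligase that marks HIF1A, and EP300 (-0.44), a coactivator, and ARNT (-0.39), the partner subunit of HIF1A.

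Genes of the mitochondrial use of pyruvate and of other routes of glucose were counted in the same way, against the same 21.4% in either direction. Of 17 tricarboxylic acid cycle genes, 6 rose and 0 fell with GFOGER, with a median of 0.14. In T47D cells 0 of them passed, where 0.11% of all genes did. All 17 values were positive there, with a median of 0.14, where 6782 of all 13642 genes tested were positive. The 17 values come from the same libraries and are not independent. The interaction was positive for 3 and negative for 0, where 10.8% and 10.1% of all genes tested were so, with a median of 0.080. In MDA-MB-231 cells FH, fumarase, lay at 68.2 to 87.0 cpm with GFOGER and 52.2 to 53.9 cpm with IKVAV (0.56, adjusted p = 0.00133, edgeR). SUCLG1, a subunit of succinyl-CoA ligase, rose by 0.55 (adjusted p = 0.00128, edgeR). Of 12 genes of pyruvate entry, 4 rose and 3 fell, among them PDHA1 (0.40) and DLD (0.36), subunits of the pyruvate dehydrogenase complex, and the kinase PDK2 (-0.67). PDK4, a kinase of pyruvate dehydrogenase like PDK1, lay at 33.8 to 42.3 cpm with GFOGER and 133 to 159.5 cpm with IKVAV (-1.90, SE 0.12, adjusted p = 5.11e-09, edgeR). Of 11 other glycolytic isoforms tested, 3 rose, with ENO3 (1.11), the muscle-type enolase, and HKDC1 (0.95), a hexokinase, in front, and 1 fell, PGAM2 (-0.81), the muscle-type phosphoglycerate mutase. Of 7 pentose phosphate genes 2 rose, RPIA (1.12) and TALDO1 (0.24), and 1 fell. Of 10 common reference genes 5 rose, led by HPRT1 (0.85), and 1 fell, B2M (-0.66), with a median of 0.34. Of 11 heat shock and early stress genes 1 rose, HSP90AA1 (0.44), and 4 fell, led by FOS (-0.84) and HSPA1B (-0.48). Between the lines, 13 of 17 tricarboxylic acid cycle genes were lower and 0 higher in MDA-MB-231 than in T47D cells, where 42.5% of all genes were lower and 42% higher. IDH2, a mitochondrial isocitrate dehydrogenase, lay furthest apart among them (-4.24, at 18.9 to 27.0 cpm against 352 to 494 cpm), followed by CS, citrate synthase (-1.26). Of the other hypoxia-inducible genes 19 of 26 were higher in MDA-MB-231 cells, among them LOX, a crosslinker of collagen (6.95), and 6 lower, and the lower ones included STC2, a secreted glycoprotein (-8.15), and CA12, a carbonic anhydrase (-5.50).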

How the data were processed

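RNA-seq of MDA-MB-231 and T47D cells from GFOGER and IKVAV hydrogels on day 3 was used. The authors aligned single-end reads to hg19 with TopHat2 2.1.0 and counted them per gene with HTSeq 0.6.1p1, per the labels, and the deposited counts were used as they stand. The deposited RPKM values, which the authors computed from those counts, served only to read the library totals they imply. Strand setting, annotation and treatment of reads with several matches are not given in the sources used here. Of 24656 entries, 1288 repeated a symbol and the entry with most reads was kept, which left 23368.

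Counts were tested with edgeR 4.0.16 in R 4.3.3 (filterByExpr, TMM, quasi-likelihood test with robust estimation), each line alone for the peptides and all 11 libraries together for lines and interaction, with Benjamini-Hochberg adjustment over all genes tested. Calls used an adjusted p below 0.05, alone or with a fold change over 2. Standard errors were derived from the F statistic. Levels are cpm, divided by the table's coding length to compare genes. Fits on simulated data with 200 genes changed by 1.5 on the log2 scale recovered 191 (MDA-MB-231, 13993 genes), 196 (T47D, 13630 genes), 199 (between lines, 14906 genes) and 168 (interaction, 15133 genes). False calls numbered 3, 1, 1 and 2. The members' median absolute change between the peptides was smaller, 0.35 in MDA-MB-231 and 0.11 in T47D cells. Recovery of such changes was not tested, and no simulated library was made to stand apart.

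The members and lists were chosen with earlier results of these data known. All members are named, and from each other list at most 2 passing genes in each direction, by size of change, in the comparisons where the text describes that list. The values of some such genes are not reported here. Robust estimation and the rule for repeated symbols were settled after the files were seen: several edgeR settings were run, and robust estimation was kept because its totals over all genes matched earlier processing of these data. Also chosen after values were seen were the promoters shown, the search for near matches of 51-base windows of a member's transcript (at most 2 mismatches, GRCh37) and the ratios of low counts. Alternatives were DESeq2 1.42.0, limma 3.58.1 (voom with sample quality weights), other scalings and filters, a replicate block, the RPKM sets and leaving out each library. Promoters came from RefSeq (GRCh38.p14; 250 bases before to 50 after a start). Replicate numbers did not pair the samples, since the labels tie them to no shared batch and the correlations of deviations ran from -0.060 to 0.017.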

Additional observations from a re-analysis of the deposited data

Results flagged for a closer look

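For 13 members the response to GFOGER against IKVAV differed between MDA-MB-231 and T47D cells by the interaction test (edgeR, adjusted p below 0.05). The differences in log2 fold change were -1.09 for PFKFB4, -1.03 for EGLN3, -1.01 for ALDOC, -0.96 for NDRG1, -0.71 for ENO2, -0.71 for SLC16A3, -0.71 for VEGFA, -0.69 for PFKL, -0.56 for PDK1, -0.50 for PFKFB3, -0.38 for BNIP3, -0.36 for PKM2 and 0.60 for HK2. ALDOC, EGLN3, ENO2, NDRG1, PFKFB4, PFKL, SLC16A3 and VEGFA passed in each of 21 alternatives. For PFKFB4, ALDOC, PFKL, ENO2, SLC16A3, VEGFA, PKM2 and BNIP3 the point estimate was negative in MDA-MB-231 and positive in T47D cells, where none of them passed.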

How the results depend on the processing

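In MDA-MB-231 cells, the members over 2-fold between the peptides numbered 2, 4 with limma voom, 3 with the replicate block and 1 with the 2-fold threshold inside the test. Members with an adjusted p below 0.05 numbered 21, 29 with the replicate block, 11 with the set of RPKM totals as a term, and 11 to 27 when 1 library was left out, 11 without IKVAV replicate 1 or replicate 2 and 27 without GFOGER replicate 3. In T47D cells the number was 0, and 1 with limma voom. For the interaction, members over 2-fold numbered 3, 1 with the replicate block, 0 with the threshold inside the test, and 1 to 4 when 1 library was left out. Members with an adjusted p below 0.05 numbered 13, 10 with the replicate block, 8 with the set of RPKM totals, and 8 to 16 when 1 library was left out. Without robust estimation these numbers were 21, 0 and 13, and with the bias-adjusted quasi-dispersion, also added after the data were seen, 21, 0 and 14. Over all genes tested, those with an adjusted p below 0.05 in T47D cells numbered 15, and from 2 to 1508 under the alternatives, with 1101 without IKVAV replicate 3. In that fit the set of RPKM totals coincides with the peptide. The sets were also unevenly spread over the conditions in the fits for lines and interaction. In MDA-MB-231 cells they ran from 3396 to 8177 and for the interaction from 1810 to 5188. Between the lines, PFKL reversed to 0.056 with the IKVAV libraries only. In no other gene and comparison did a called value change sign. With ACGTG alone, 39.3% of member promoters and 21.4% of all promoters held the motif. Shares not divided by length moved, for LDHA in MDA-MB-231 cells with GFOGER from 71.5% to 80.0%. The cause of these changes was not tested.

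Depth limits CA9 and ANKRD37 in both lines, SLC2A3 and LDHB in T47D cells and SLC16A1 in MDA-MB-231 cells. Only 2 libraries of MDA-MB-231 cells with IKVAV entered the fits, and each line is a single line. Libraries came from pooled gels, so p-values measure the spread between libraries.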
